A study of Mus musculus with 6 samples.

Results

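The zinc finger genes numbered from Zfp900 up were examined on 3 arrays of H10 cells and 3 arrays of C8 cells. The members were all genes whose annotated symbol is Zfp followed by a 3-digit number that begins with 9, and there were 52 of them. Of these, 34 had at least 1 array feature annotated with their symbol alone, out of 19930 such genes in the table, and 18 were found only on features annotated with several symbols. A further 10 genes numbered in this way in the RefSeq gene table had no feature in the array annotation and were not measured here. The set was chosen by the low H10 log2 values of Zfp991 against those of C8 on these same arrays, and was then filled by gene number alone. The difference of Zfp991, and of the features that list it, is therefore given as a description with no test.

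H10 and C8 are cell lines derived from the mouse macrophage line RAW264.7. Lifeact-mEGFP and puromycin resistance, brought in with a retrovirus, are common to both. RNA was taken after 2 days of sRANKL (60 ng/mL), the cytokine that starts osteoclastogenesis (OCG). H10 cells fuse into multinucleated osteoclasts and C8 cells do not. Each was grown from a limiting dilution clone, per the study's methods. With 1 line for each phenotype, the capacity to fuse cannot be told apart from other differences between the lines. Whether a line's 3 arrays stand for different cultures is not stated, so the spread behind each p-value is that among these arrays and may be technical only. The arrays measure total RNA of a culture, so fewer cells with a transcript and less of it per cell cannot be told apart.

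The C2H2 zinc finger proteins are the largest family of transcription factors in mammals. Many of them, including most genes in the large Zfp clusters, pair their fingers with a KRAB domain, which recruits the corepressor TRIM28 (KAP1) and, through it, the histone methyltransferase SETDB1 and heterochromatin proteins. Clusters of such genes on mouse chromosomes 2 and 4 have expanded by duplication, and their products bind and silence retrotransposons in embryonic cells. Close copies also have near-identical transcripts, so that a microarray probe can read several of them. Protein sequences were not used here, and the presence of a KRAB domain was not checked for any member.

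The likeness among some of the chromosome 4 genes can be seen in their upstream sequence. The 250 bases before the annotated start are shown for 4 members of the chromosome 4 stretch that resemble each other and for Zfp933, at the far end of the same stretch, which does not resemble them. The sequences are from RefSeq, build GRCm38.p6, and are written 5′ to 3′ on the strand of the gene. Zfp980 is at chr4:145670447-145670696 (+ strand), Zfp985 at chr4:147553027-147553276 (+ strand), Zfp979 at chr4:147642509-147642758 (- strand), Zfp987 at chr4:146097062-146097311 (+ strand) and Zfp933 at chr4:147848419-147848668 (- strand). Capitals mark the 2 longest runs of bases that the first 4 share, which are equal in length.
Zfp980: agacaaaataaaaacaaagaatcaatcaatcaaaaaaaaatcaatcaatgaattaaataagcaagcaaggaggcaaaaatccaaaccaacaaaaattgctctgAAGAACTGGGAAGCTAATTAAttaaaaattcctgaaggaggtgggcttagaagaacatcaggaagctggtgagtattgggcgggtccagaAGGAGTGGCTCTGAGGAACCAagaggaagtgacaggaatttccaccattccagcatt
Zfp985: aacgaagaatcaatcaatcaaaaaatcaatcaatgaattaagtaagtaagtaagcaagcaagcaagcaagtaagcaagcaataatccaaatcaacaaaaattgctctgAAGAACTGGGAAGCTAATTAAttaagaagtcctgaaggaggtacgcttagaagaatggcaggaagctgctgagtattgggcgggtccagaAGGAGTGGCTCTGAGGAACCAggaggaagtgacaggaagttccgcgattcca
Zfp979: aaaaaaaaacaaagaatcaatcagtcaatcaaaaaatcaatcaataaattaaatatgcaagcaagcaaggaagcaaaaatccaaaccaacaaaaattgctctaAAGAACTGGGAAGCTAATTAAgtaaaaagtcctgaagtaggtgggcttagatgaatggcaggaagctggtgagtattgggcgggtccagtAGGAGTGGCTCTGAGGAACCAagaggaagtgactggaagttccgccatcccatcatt
Zfp987: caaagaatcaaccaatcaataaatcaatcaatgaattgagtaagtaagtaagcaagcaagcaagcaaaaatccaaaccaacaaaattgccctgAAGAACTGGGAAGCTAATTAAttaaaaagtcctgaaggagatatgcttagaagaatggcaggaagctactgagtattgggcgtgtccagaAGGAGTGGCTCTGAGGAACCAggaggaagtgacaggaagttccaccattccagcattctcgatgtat
Zfp933: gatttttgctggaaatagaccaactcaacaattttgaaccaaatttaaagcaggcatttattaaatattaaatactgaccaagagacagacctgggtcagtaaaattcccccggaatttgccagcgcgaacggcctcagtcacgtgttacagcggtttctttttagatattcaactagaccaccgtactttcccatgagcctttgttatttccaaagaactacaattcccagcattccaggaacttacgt

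In pairwise global alignments, the upstream sequence of Zfp980 was 89.0% identical to that of Zfp979, 79.9% to that of Zfp987 and 79.6% to that of Zfp985, and 51.2% identical to that of Zfp933. The shared runs, AAGAACTGGGAAGCTAATTAA and AGGAGTGGCTCTGAGGAACCA, are 21 bases long each. Searched on both strands, each was found in the upstream sequence of 9 of 27025 genes (0.0333%), and these were the same 9 genes, all of them on chromosome 4. Of these, 6 were members (Zfp979, Zfp980, Zfp982, Zfp985, Zfp987 and Zfp988) and 3 were genes outside the number range (Rex2, Zfp534 and Zfp600). The promoter table held 46 of the 52 members and has no entry for Zfp991. It held 10 genes of this number range on chromosome 4, so the 6 with the runs were not all of them. The runs are matches of letters and were not tested as binding sites.

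Zfp991 was lower in H10 than in C8 cells on every array. Its own feature, 10510215, had log2 values of 5.26, 4.76 and 4.40 for H10 against 7.93, 7.49 and 7.37 for C8. The lines did not overlap, and the highest H10 array lay 2.11 below the lowest C8 array. The H10 mean was 4.81 ± 0.43 and the C8 mean 7.60 ± 0.29 (SD, n = 3 each), a difference of -2.79, or 6.92-fold. Both means were under the table median of 7.70. The C8 mean stood at the 48.1 percentile of all features in C8 cells, and the H10 mean at the 7.35 percentile in H10 cells. No background measure was used here, so the size of the difference is uncertain.

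A further 5 features listed Zfp991 together with other genes of the chromosome 4 stretch, and each was lower in H10 cells with no overlap between the lines. In all 1621 features with several symbols, 6.79% had all H10 arrays below all C8 arrays. Feature 10518346, which lists 5 symbols (Zfp534, Zfp991, Zfp987, Zfp992 and Znf41-ps), had log2 values of 8.49, 8.22 and 8.37 for H10 against 9.41, 9.41 and 9.23 for C8, a difference of -0.99. Feature 10518335, with 8 symbols, had a difference of -0.74. Features 10490854 and 10510167, which list the same 10 symbols, had differences of -0.64 and -0.52, and feature 10510178, with 13 symbols, had -0.48. Zfp534, Zfp987, Zfp992 and the pseudogene Znf41-ps were listed beside Zfp991 on all 5 features. Which of the listed genes carried the lower signal cannot be told apart. A related feature of the stretch that does not list Zfp991, 10510201 (Rex2, Zfp981, Zfp980, Zfp600, Zfp987 and Zfp979), had log2 values of 6.38, 6.15 and 6.19 for H10 against 6.39, 6.36 and 6.45 for C8. These overlapped, and the difference was -0.16 (95% interval -0.35 to 0.03, adjusted p = 0.528 from limma).

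**Figure D1:**
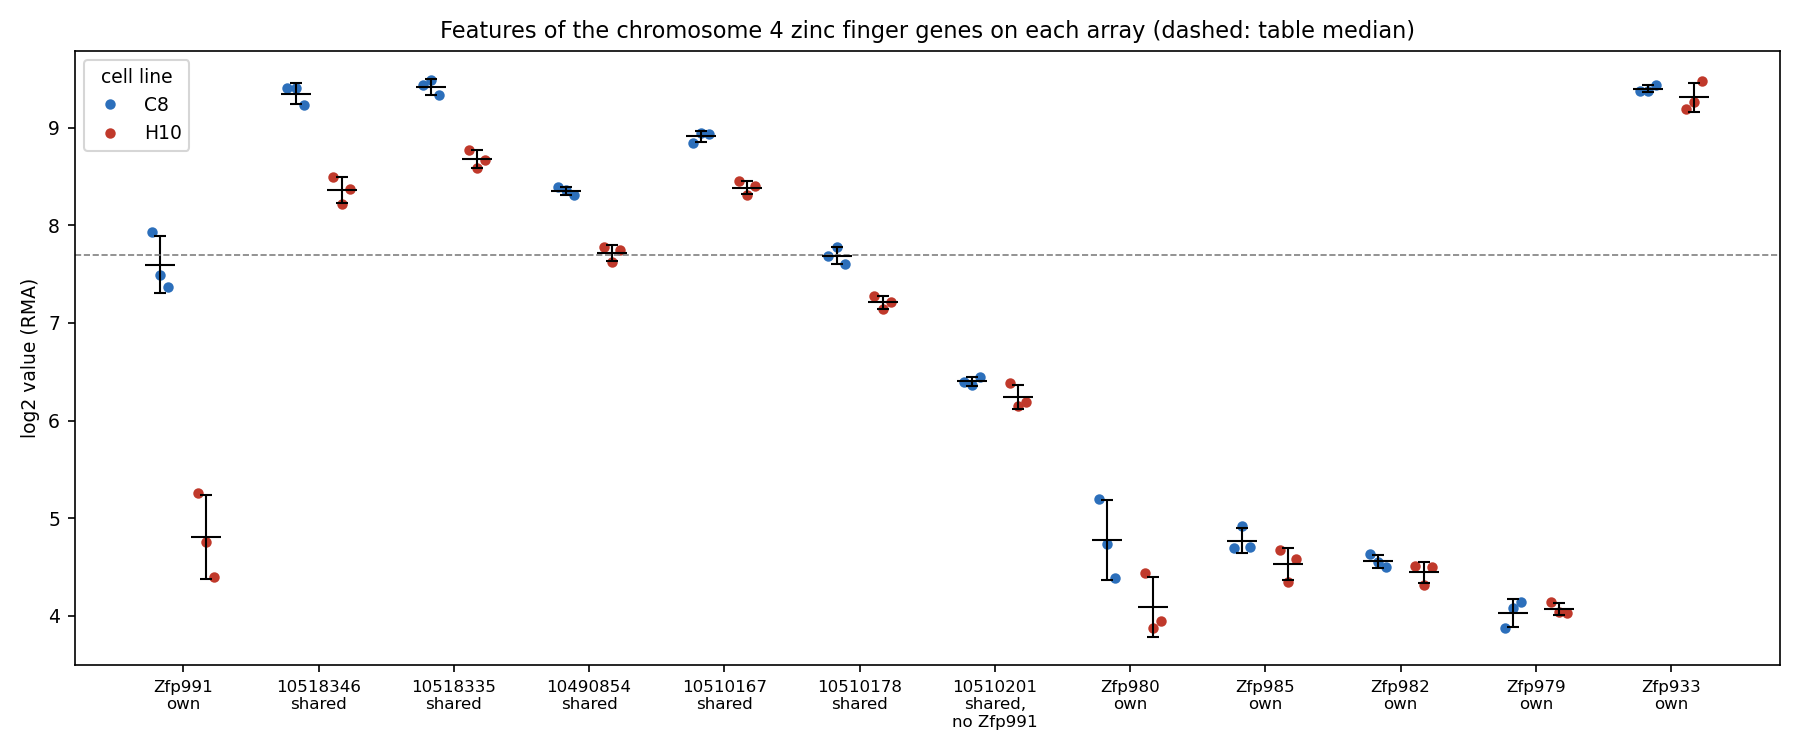
Log2 values of 12 features of the chromosome 4 zinc finger genes (x axis: the gene with its own feature, or the number of a shared feature) on each C8 and H10 array, with bars for each line's mean and SD (n = 3) and a dashed line at the table median of 7.70. The lines are 2.11 apart at their nearest for Zfp991 and do not overlap on the 5 shared features that list it, while the features of Zfp980, Zfp982, Zfp979 and Zfp933 and shared feature 10510201 overlap.

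No other member with a feature of its own passed the test between the lines. Of the 33 members besides Zfp991, 0 were higher and 0 were lower in H10 cells at an adjusted p under 0.05 from limma, against 1.85% higher and 1.04% lower among all 19930 genes. At an unadjusted p under 0.05, 0 were higher and 4 (12.1%) were lower (Zfp980, Zfp949, Zfp952 and Zfp954), against 6.1% and 7.67% of all genes. Their median log2 difference was -0.03, as was that of all genes. Taken without sign, the median difference was 0.09, against 0.07 for all genes. Of the 33, 31 differed by less than 0.25 in either direction, a share that was not computed for all genes. By sign, 12 were higher and 21 lower, against 7630 and 12074 of all genes. All H10 arrays lay below all C8 arrays for 5 of the 33 (15.2%; 12.7% of all genes), namely Zfp949, Zfp985, Zfp952, Zfp954 and Zfp938, and above them for 0 (7.74% of all genes).

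Zfp980, which encodes a zinc finger protein of the chromosome 4 stretch, had the largest difference after Zfp991. Its log2 values were 4.44, 3.87 and 3.95 for H10 against 5.20, 4.74 and 4.39 for C8. The third C8 array lay below the first H10 array, so the lines overlapped. The difference was -0.69 (standard error 0.24, 95% interval -1.26 to -0.12, adjusted p = 0.299 from limma), on a feature far under the table median. When a block for the replicate number was added, the adjusted p was 0.0836, the lowest of any alternative run for it.

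Zfp949, on chromosome 9, had log2 values of 7.35, 7.72 and 7.77 for H10 against 7.95, 7.96 and 7.94 for C8. The C8 arrays were nearly equal, and the first H10 array was the lowest. The difference was -0.34 (standard error 0.12, adjusted p = 0.305), and it was -0.205 without that array, which moves it by more than 1.5 times. Zfp952 on chromosome 17 had 8.39, 8.48 and 8.53 for H10 against 8.73, 8.70 and 8.58 for C8, a difference of -0.20 (adjusted p = 0.316). Zfp954 on chromosome 7 had 9.18, 9.19 and 9.28 for H10 against 9.51, 9.29 and 9.43 for C8, a difference of -0.19 (adjusted p = 0.397). For each of these the lines were separate by 0.17 or less.

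In the other direction, the 5 members with the largest differences were Zfp931, Zfp945, Zfp946, Zfp948 and Zfp939, at 0.19, 0.16, 0.12, 0.10 and 0.10, and for each of them the H10 and C8 arrays overlapped. Zfp931, on chromosome 2, had log2 values of 8.23, 8.34 and 8.61 for H10 against 8.26, 8.35 and 8.00 for C8. The third H10 array was the highest and the third C8 array the lowest, while the other 4 lay between 8.23 and 8.35. The 95% interval of the difference was -0.13 to 0.51 (adjusted p = 0.706), and the difference was 0.082 without the third H10 array and 0.088 without the third C8 array. Zfp946 had a difference of 0.073 without the first H10 array, and Zfp939 of 0.025 without the third H10 array and -0.0067 without the first C8 array, so the order of these genes rests on single arrays. Zfp945, on chromosome 17, had 7.76, 7.62 and 7.83 for H10 against 7.47, 7.61 and 7.64 for C8 (95% interval -0.03 to 0.36, adjusted p = 0.539).

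**Figure D2:**
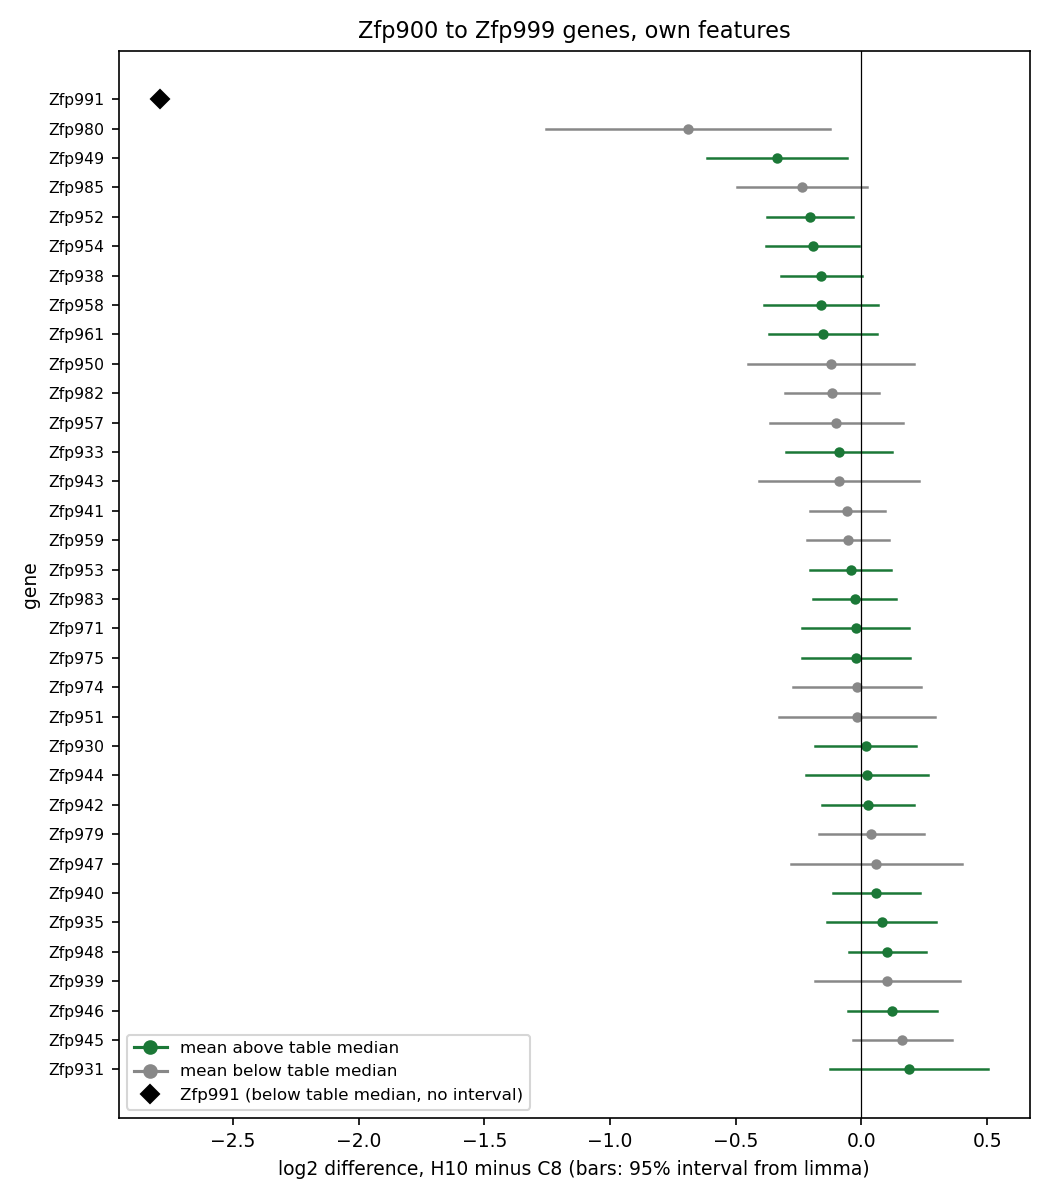
Log2 difference, H10 minus C8, of the 34 members with features of their own (y axis), with the 95% interval from limma for all but Zfp991, which is shown as a point only. Green marks members above the table median over the 6 arrays and grey those below it. Zfp991 lies at -2.79, Zfp980 at -0.69, and all others between -0.34 and 0.19.

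Along chromosome 4, the order of genes in GRCm38.p6 places 14 members within a run of 77 annotated genes. Of the 5 members within 20 annotated genes of Zfp991, Zfp978 had no feature in the annotation, Zfp988 was listed only on a shared feature, and Zfp982, Zfp985 and Zfp979 had their own. Zfp979, known also as Ssm1b, a modifier of DNA methylation that differs between mouse strains, had log2 values of 4.14, 4.04 and 4.03 for H10 against 3.87, 4.08 and 4.14 for C8. The arrays of the lines were mixed, and the difference was 0.04 (95% interval -0.17 to 0.25). Zfp982 had 4.51, 4.32 and 4.50 for H10 against 4.63, 4.55 and 4.50 for C8, a difference of -0.12 (95% interval -0.30 to 0.07), which was -0.055 without the second H10 array. Zfp985 had 4.67, 4.35 and 4.58 for H10 against 4.69, 4.92 and 4.70 for C8 on its brightest feature, a difference of -0.24 (95% interval -0.50 to 0.02), which was -0.145 without the second H10 array. Its other 2 features had differences of -0.14 and -0.13, and their arrays overlapped. All 3 genes lay far below the table median, and whether a difference in their transcripts could be detected at such a signal is not known without a background measure.

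Zfp933, the last member on that side, was above the table median, with an H10 mean of 9.31 ± 0.15 and a C8 mean of 9.40 ± 0.03 (SD, n = 3 each), a difference of -0.09. The 10 nearest genes with their own features beyond Zfp933 had a median difference of -0.01 (-0.21 to 0.16). The 10 nearest on the other side also had a median of -0.01 (-0.13 to 1.63), the highest being Tnfrsf1b, which encodes TNF receptor 2. Within the stretch, Zfp600, whose number lies outside the range, had a difference of 0.56 on a feature with a mean of 4.03, and the ribosomal protein pseudogene Rps19-ps3 one of -0.38 on a feature with a mean of 8.45.

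None of the members on other chromosomes passed the test. They were grouped by chromosome only, and whether they lie in clusters was not examined. The 10 members on chromosome 17 had a median difference of 0.03 (-0.20 to 0.16), the 6 on chromosome 7 a median of -0.02 (-0.19 to 0.10), and the 3 on chromosome 8 a median of -0.15 (-0.16 to 0.02). Zfp971 on chromosome 2, among the 5 members with the highest mean log2 value, had 11.81, 11.69 and 11.68 for H10 against 11.59, 11.84 and 11.82 for C8, with no separation and a difference of -0.02. The other 4 of these were Zfp948, Zfp938, Zfp961 and Zfp930, with differences of 0.10, -0.16, -0.15 and 0.02 (adjusted p = 0.423 to 0.977 from limma). That of Zfp961 was -0.082 without the second H10 array. For Zfp938, whose lines were apart by 0.02, the log2 values were 11.28, 11.15 and 11.18 for H10 against 11.42, 11.30 and 11.37 for C8.

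**Figure D3:**
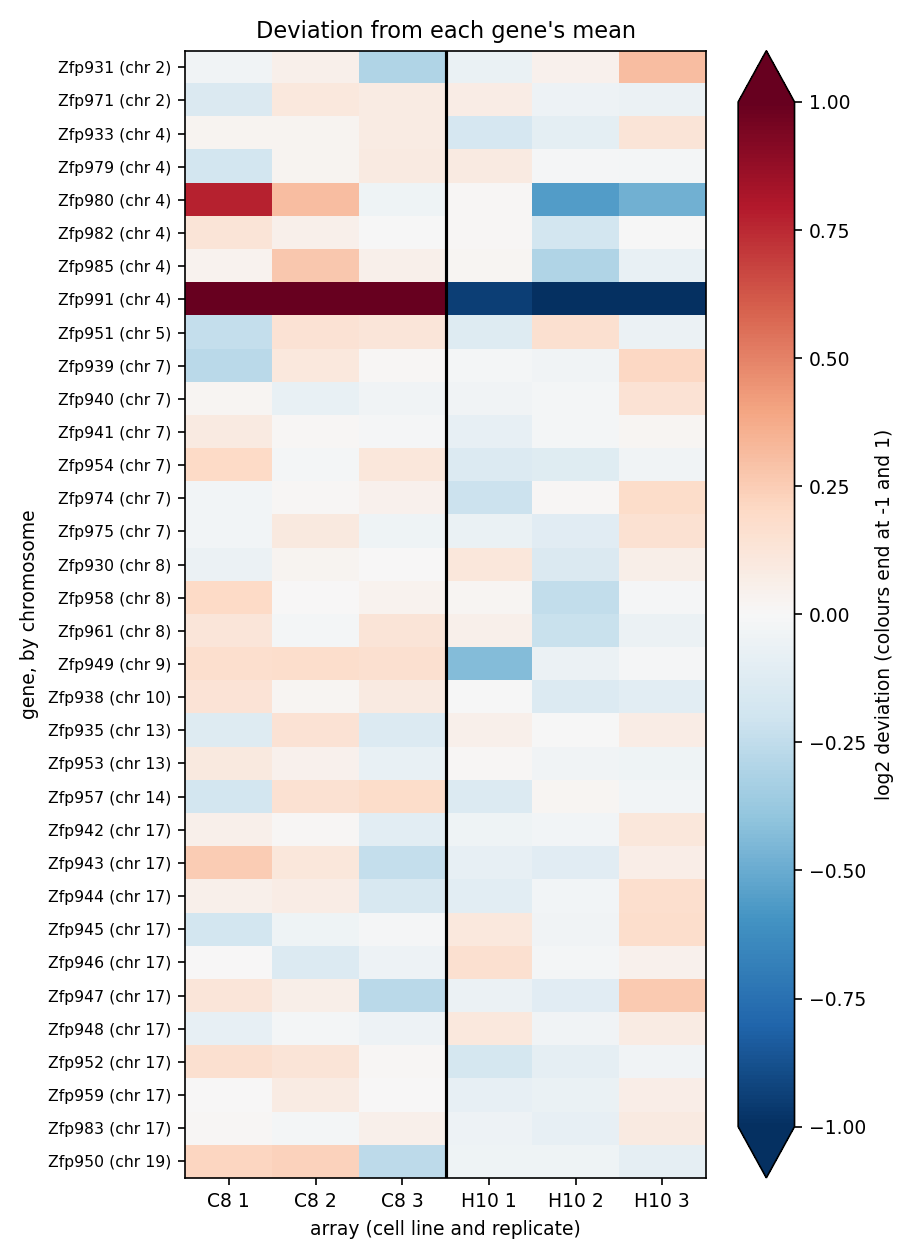
Log2 value of each of the 34 members on each array as the deviation from that gene's mean over the 6 arrays, with genes ordered by chromosome (y axis), arrays by line (x axis), and colours that end at -1 and 1. The band of Zfp991 is high on all C8 and low on all H10 arrays, and among the other members only Zfp980 deviates by more than 0.5 on any array.

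Apart from the 5 features that list Zfp991, 22 features held a member together with other genes, and 0 of them passed the test in either direction. Of all 1621 features with several symbols, 2.59% passed as higher and 0.555% as lower. At an unadjusted p under 0.05, 0 of the 22 were higher and 1 (4.55%) was lower, against 7.9% and 3.45% of the 1621. Their median difference was -0.02 (-0.36 to 0.20). The lowest was feature 10468881, which lists Zfp950 and the chromatin gene Arid4b, with 9.85, 9.81 and 9.92 for H10 against 10.13, 10.24 and 10.28 for C8. The lines did not overlap, and the difference was -0.36 (standard error 0.07, adjusted p = 0.0623 from limma). Zfp950 on its own feature had a difference of -0.12 (adjusted p = 0.853), and features 10532305 and 10532310, which list Zfp950, Arid4b, Zfp932 and other genes, had differences of 0.14 and 0.20, so the features of Zfp950 disagreed in sign. The 2 features of Zfp932 and its paralog Gm15446, whose products are known to bind retroviral elements, had differences of -0.02 and 0.05. The 4 features with 14 or more symbols, which hold Zfp965, Zfp966, Zfp967, Zfp970, Zfp971, Zfp973 and Zfp931 of chromosome 2, had differences of -0.04 to -0.02. In this group, 1 pair of features held the same values on all 6 arrays. Zfp934 shared 2 features with Zfp808 and other genes, 1 of them with Zfp935 too, and their differences were -0.13 and -0.11. Zfp983 and Gm10509 shared 2 features, at -0.07 and 0.15, and Zfp974 shared 2 with genes of chromosome 7, at -0.06 and -0.03. Zfp975 was on 3 features together with Zfp976, Zfp936 or both, at -0.01, 0.04 and 0.09. Zfp937 with Zfp442 was at -0.01, Zfp956 with Zfp783 at 0.03 and Zfp960 with Zfp97 at 0.05.

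Dim features were about as common in the set as in the table. Of the 33 members, 14 (42.4%) had a mean under the table median, against 43.8% of all genes. The median residual SD between arrays of a line was 0.15 for these 14 and 0.10 for the 19 brighter members. For all genes this SD was 0.097 below the table median and 0.094 above it. The median size of the difference was 0.10 for the dim and 0.09 for the brighter members, against 0.06 and 0.09 for all genes below and above the table median. With the dim features left out, 0 of the brighter members passed the test.

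**Figure D4:**
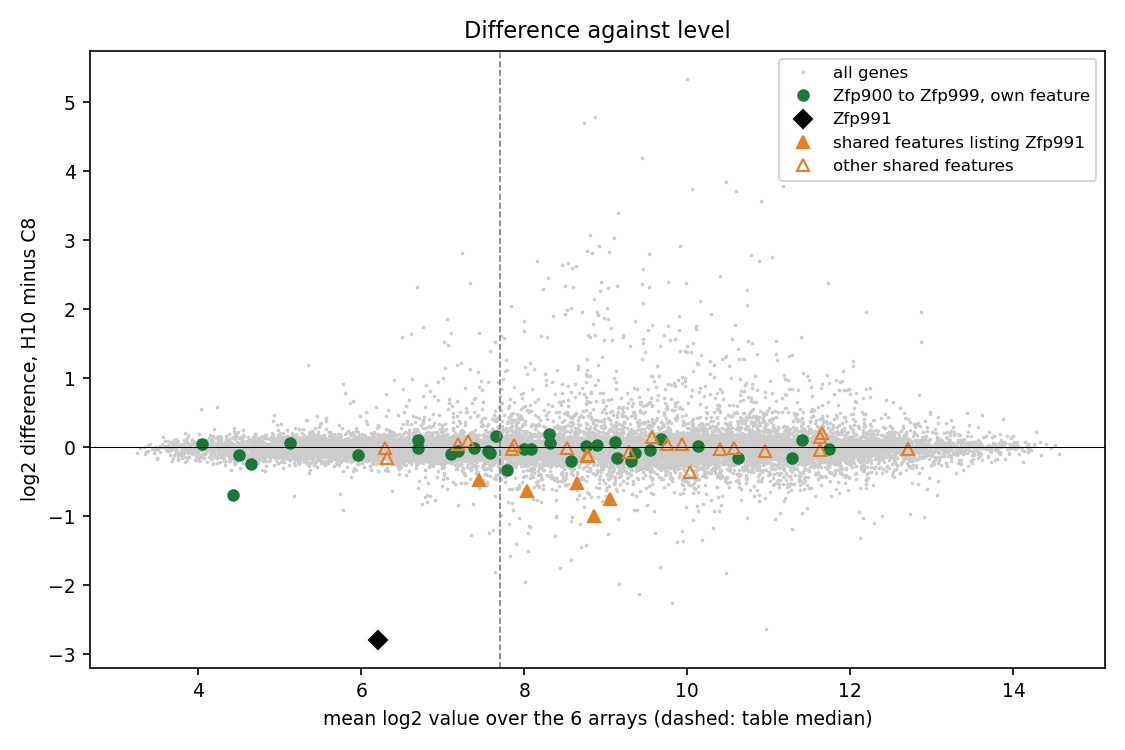
Log2 difference, H10 minus C8, against the mean log2 value over the 6 arrays for all genes (grey), the members with their own features (circles), Zfp991 (diamond) and the features shared with other genes (triangles), with a dashed line at the table median of 7.70. Zfp991 lies at 6.20 and -2.79, below every other gene in the plot, and the filled triangles, which list it, lie between -0.99 and -0.48.

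The set was compared with the 283 genes named Zfp with a number under 900. Of these, 0 were higher and 1 was lower at an adjusted p under 0.05 from limma, Zfp202, with a difference of -0.44 (adjusted p = 0.0411). At an unadjusted p under 0.05, 6 (2.12%) were higher and 31 (11.0%) lower, against the 6.1% and 7.67% of all genes. Their median difference was -0.05, and 25.8% had a mean under the table median. Next to the number range, Zfp882 of chromosome 8 had 7.44, 7.49 and 7.62 for H10 against 8.33, 8.12 and 7.91 for C8, a difference of -0.60, and Zfp879 of chromosome 11 one of 0.04. The first member above them with its own feature, Zfp930, had a difference of 0.02. Whether the set differs from the lower numbers was not tested.

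Among the genes listed for the KRAB corepressor pathway and heterochromatin, only Setdb2 passed the test. Of 41 genes of the KRAB corepressor and heterochromatin list, 1 was higher and 0 were lower in H10 cells, against 1.85% higher and 1.04% lower among all genes. The other 40 were short of the threshold. The median difference of the list was -0.04, beside -0.03 over all genes. At an unadjusted p under 0.05, 1 (2.44%) was higher and 6 (14.6%) were lower, against 6.1% and 7.67% of all genes. All H10 arrays lay below all C8 arrays for 8 (19.5%, against 12.7% of all genes) and above them for 4 (7.74% of all genes). Trim28, the corepressor that KRAB domains bind, had a difference of -0.05 (95% interval -0.22 to 0.12), Setdb1, the methyltransferase it recruits, 0.03 (-0.12 to 0.17), and Cbx5, which encodes HP1α, -0.11 (-0.30 to 0.09). With 1 array left out, the difference of Cbx5 ranged from -0.16 to -0.053. The gene that passed, higher in H10 than in C8 cells, was Setdb2, a relative of Setdb1 that interferon is known to induce. It had log2 values of 8.44, 8.46 and 8.55 for H10 against 8.03, 8.15 and 8.04 for C8, a difference of 0.41 (standard error 0.07, adjusted p = 0.0354). It did not pass with any 1 of the 6 arrays left out (adjusted p = 0.0743 to 0.171) or with the replicate number as a block (adjusted p = 0.118). In each of those fits, 0 of the 41 genes passed.

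Most markers of the labelled cells lay above the table median, as did 11196 of all 19930 genes. That median is not a limit of detection. Of 10 macrophage markers, 8 lay above the table median, and the list's mean log2 value ranged from 11.16 to 11.25 over the H10 arrays and from 10.82 to 10.90 over the C8 arrays. Only 1 of them passed the test, Adgre1, which encodes F4/80 and was higher in H10 cells by 2.02. The other 9 did not pass, with differences from -0.15 for Mertk to 0.56 for Fcgr1. Of 10 osteoclast markers, 6 were higher in H10 cells at an adjusted p under 0.05 from limma, against 1.85% of all genes. The largest difference was that of Ctsk, which encodes cathepsin K, at 3.57. The other 4 did not pass, with differences of 0.14 for Nfatc1, 0.07 for Calcr, 0.06 for Itgb3 and -0.34 for Mmp9. The osteoclast list's mean ranged from 11.02 to 11.20 for H10 and from 9.83 to 10.16 for C8. The part of this difference in osteoclast genes in the values of Zfp991 was not tested. Of the markers of other cells, 0 of 4 for B cells, 1 of 6 for T cells and 0 of 6 for endothelium and epithelium lay above the table median. For fibroblasts and osteoblasts, 2 of 4 did (the 4 were Dcn, Col1a1, Col1a2 and Pdgfra). Array medians were 7.65 to 7.74. Pairs of arrays differed with an SD of 0.20 to 0.29 within a line and 0.30 to 0.34 across lines. On the second principal component of all features (22.2% of the variance), the replicate 1 arrays of both lines lay apart from the rest. Without these arrays Zfp991 had a difference of -2.85, and 0 of the other members passed the test.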

How the data were processed

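RNA of H10 and C8 cells was measured by the study on Affymetrix Mouse Gene 1.0 ST arrays. The deposited log2 values, 1 per feature, are the authors' RMA output. Affymetrix Expression Console is the tool in the submitters' processing notes, with its version not given in the sources used here. All 35545 features were used as deposited, with 0 missing values. By the annotation, 21781 features had 1 symbol, 1621 had several and 12143 had none. A gene was represented by its feature with the highest mean log2 value. All 34 members with their own features matched the GRCm38.p6 gene table by Entrez identifier; since the annotation names no build, that table was used for names and gene order only. Members whose symbols end in a letter, such as Zfp955a, were not counted.

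The H10 minus C8 difference was fitted in limma 3.58.1 under R 4.3.3 (lmFit, eBayes, two-sided, 4 residual and 2.57 prior degrees of freedom), with Benjamini-Hochberg adjustment over all features and a threshold of 0.05. An exact permutation of 3 against 3 arrays cannot reach that threshold. On simulated data with 35545 features, 83% of 2-fold changes and 96% of changes of 2.8 log2 units were recovered. Of all calls, 4.79% were false. The changed features were drawn from the whole table, so recovery among the dim members is not known. The simulated noise was independent between features and arrays, so it held no deviation shared by arrays. No change under 2-fold was simulated, so the recovery of smaller differences is not known. The members and lists were chosen with earlier results of these data known. Named genes are Zfp991, members past the test, the 5 largest other differences in each direction, the 5 highest means, members within 20 genes of Zfp991, the shared features, Trim28, Setdb1, Cbx5 and list members past the test; other names were chosen after their values were seen. Alternatives were each array left out, a block for the replicate number, median centring or quantile normalization of the arrays, a restriction to the 17939 features that exceed the table median on 3 or more arrays, a trended robust prior, the mean of a gene's features, adjustment over 1 feature per gene, a threshold of 0.01 and the addition of shared features; leaving out the replicate 1 arrays of both lines was added after seeing the data. Upstream sequences were aligned with Biopython 1.88, and figures drawn with matplotlib 3.10.9.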

Additional observations from a re-analysis of the deposited data

How the results depend on the processing

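The counts of members other than Zfp991 past the test, 0 higher and 0 lower in H10 cells, were 0 and 0 under every alternative run, including the fit with the replicate number as a block and the addition of 22 shared features. The median difference of these members was -0.03 and lay between -0.08 and -0.03 when arrays were left out, and the difference of Zfp991 lay between -3.02 and -2.59; the filter on dim features drops Zfp991. Of the corepressor and heterochromatin list, 1 gene passed the test (Setdb2, 0.41). That count was 0 with each array left out and without the replicate 1 arrays of both lines. It was also 0 with the replicate block and at an adjusted p under 0.01. Across features, the deviations of the replicate 1 arrays of the lines correlated at r = 0.17, and both arrays lay apart on the second principal component. Those of the replicate 2 and replicate 3 arrays did not correlate in this way (r = -0.0043 and -0.12). Arrays of unlike number reached r = 0.23 (H10 array 3 with C8 array 2), and 2 of 6 arrays correlated best with their own number. The replicate numbers were therefore not taken as pairs, and the block changed no call among the members. Differences close to 0 changed sign with 1 array left out: that of Zfp930 ranged from -0.037 to 0.093 (below 0 without H10 array 1, H10 array 3 or C8 array 1), of Zfp939 from -0.0067 to 0.18 (below 0 without C8 array 1), of Zfp971 from -0.103 to 0.022 (above 0 without C8 array 2 or 3) and of Zfp979 from -0.04 to 0.095 (below 0 without C8 array 1). With the replicate 1 arrays of both lines left out, Zfp930 was -0.06 and Zfp979 -0.075. None of these passed the test in any fit. With 3 arrays a line and no background measure used, what can be said of the members below the table median is limited.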
